A study of Mus musculus with 6 samples.

Results

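The S100A genes encode small calcium-binding proteins, and they were followed here across both compartments of the mouse bladder at embryonic day 13. A gene counted as a member when its symbol was on a list of 10 S100A genes and it had at least 1 probe set annotated with that symbol alone. This gave 9 genes with 13 probe sets, out of 18193 genes tested. The tenth, S100a11, was represented by 1 probe set that carried 3 symbols, so no value is given for it.

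S100 proteins are dimers built from EF-hand calcium-binding loops. When calcium binds, most of them expose a surface that holds a partner protein, such as an annexin or a cytoskeletal protein. Some act inside the cell and others are released and signal through receptors. S100a4 is widely used as a fibroblast marker, S100a8 and S100a9 form the calprotectin complex of neutrophils, and S100a14 is known from epithelia.

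The groups were the urothelium, the bladder epithelium (3 arrays, replicates 5, 7 and 8 by their labels), and the bladder mesenchyme around it (3 arrays, replicates 1, 2 and 4). Both came from wild-type FVB/N embryos of Theiler stage 21 and unknown sex, whose bladders were soaked in 20 µM EDTA for 20 minutes, parted with a needle and extracted without pooling of samples. RNA was amplified in 2 rounds and hybridised to Affymetrix MOE430 arrays. No label ties an array to an embryo or litter. The p-values therefore cover the spread between these samples, which may be technical, and the small number of arrays limits the precision.

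The values are array signals on a linear scale. Differences are log2 urothelium minus mesenchyme after 45 was added to each signal, which understates the change of dim genes, and a gene passed the test when its limma p-value, adjusted over all 18193 genes, was under 0.05. The compartments matched their labels: of 14 epithelial marker genes 13 were higher in urothelium and 0 in mesenchyme, and of 12 fibroblast mesenchyme markers all 12 were higher in mesenchyme. The summed epithelial marker signal was 501422 to 601516 in urothelium and 10287 to 13374 in mesenchyme. Urothelium 5 and mesenchyme 1 stood apart from the other arrays in their beta-actin 3′ to 5′ ratio, at 8.60 and 8.40, against 2.29 to 4.89. In the Gapdh 3′ to 5′ ratio urothelium 5 was again highest, at 26.3, while mesenchyme 1 at 11.5 lay within the range of the remaining arrays (9.77 to 15.7).

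Of the 9 measured S100A genes, S100a14, S100a6, S100a10 and S100a16 were higher in urothelium. The other 5 did not pass limma's test, and 0 were higher in mesenchyme, also at an unadjusted p under 0.05. Over all genes 5.80% were higher in urothelium and 8.91% in mesenchyme. The median log2 difference of the 9 genes was 0.90, and that of all genes was −0.11. For 7 of the 9, every urothelium array lay above every mesenchyme array, which held for 12.0% of all genes. For 0 of the 9 the reverse held, against 18.1% of all genes. Without urothelium 5 and mesenchyme 1 the number of S100A genes higher in urothelium was 5. It was 3 in a stricter test against a 2-fold difference, and 3 among genes above the median signal, where S100a14 was not tested. It was also 3 without probe sets that may bind other transcripts (x_at kind), a choice made after the data were seen. In whole tissue, fewer cells of a type and less RNA per cell cannot be told apart.

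**Figure D1:**
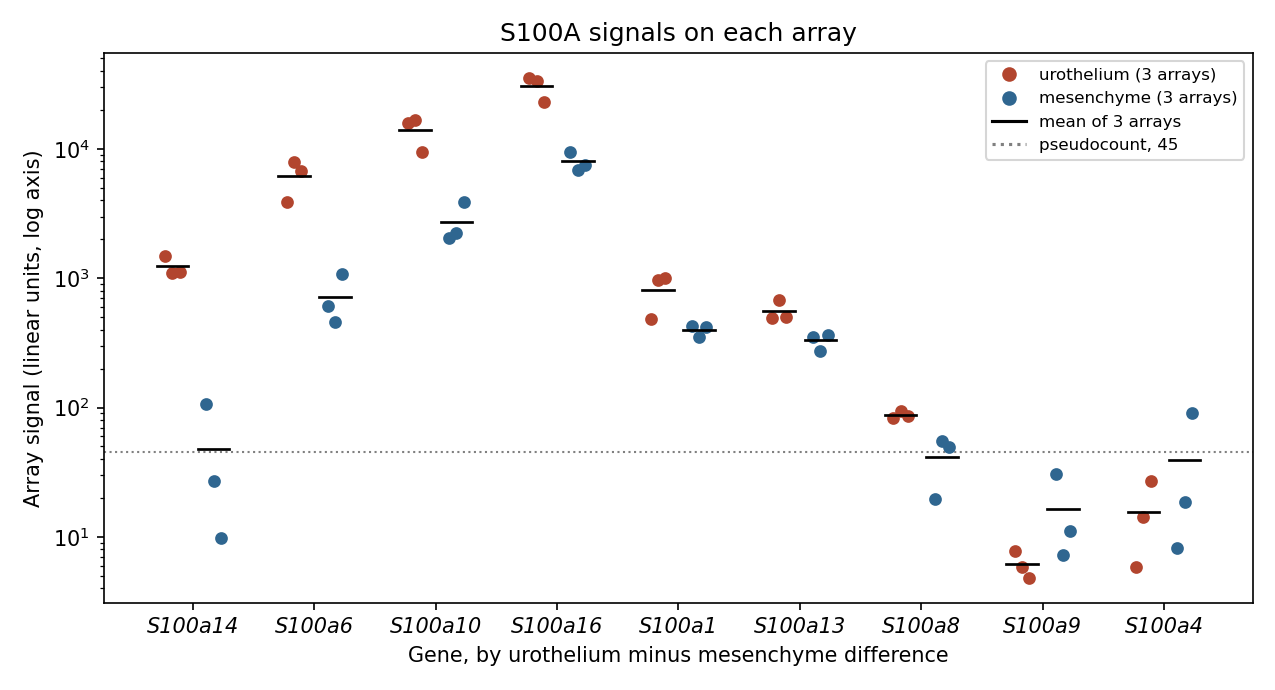
Array signal (log axis) of the 9 measured S100A genes on each array, with urothelium left of mesenchyme; black bars are means of 3 arrays and the dotted line is the pseudocount of 45. Urothelium lies clear of mesenchyme for S100a14, S100a6, S100a10 and S100a16, while S100a9 stays below 45 on all 6 arrays.

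S100a14, an S100 protein of epithelial cells, had signals of 1483, 1089 and 1124 on urothelium 5, 7 and 8, against 107.4, 27.2 and 9.84 on mesenchyme 1, 2 and 4. The lowest urothelium array lay far above the highest mesenchyme array. Its mean was 1232 ± 218 in urothelium and 48.2 ± 52.1 in mesenchyme (SD, n = 3 each). The log2 difference was 3.90 ± 0.47 (SE, limma adjusted p = 0.000206). Because the mesenchyme signals lie near or below the pseudocount, this value depends on it: the difference was 5.25 with a pseudocount of 1 and 2.64 with one of 180, past the test with both. It was above that of S100a6 with the pseudocount of 45 and below it with 180, where S100a6 had 2.83.

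S100a6, also called calcyclin and a partner of the calcyclin-binding protein, had signals of 3875, 7951 and 6741 on urothelium 5, 7 and 8, against 611.1, 459.1 and 1075 on mesenchyme 1, 2 and 4. Urothelium 5 was the lowest array of its group and still lay above all mesenchyme arrays. The log2 difference was 3.06 ± 0.39 (limma adjusted p = 0.000294). Leaving out single arrays gave 2.80 to 3.38, past the test each time.

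S100a10, the S100 protein that holds annexin A2 at the membrane without binding calcium, was measured by 3 probe sets that did not give the same size of difference. The brightest had signals of 15755, 16604 and 9436 on urothelium 5, 7 and 8, against 2035, 2234 and 3854 on mesenchyme 1, 2 and 4. The groups did not overlap, and the log2 difference was 2.36 ± 0.33 (limma adjusted p = 0.000582). This probe set is of the x_at kind, which Affymetrix uses for probes that may also bind other transcripts.

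The second S100a10 probe set had signals of 2667, 3611 and 2857 on urothelium 5, 7 and 8, against 2402, 1165 and 1876 on mesenchyme 1, 2 and 4. The groups did not overlap here either, but the highest mesenchyme array lay close below the lowest urothelium array. When probe sets of the x_at kind were left out, a choice made after the data were seen, S100a10 rested on this probe set, and its difference of 0.78 did not pass the test (limma adjusted p = 0.163). The mean of its 3 probe sets gave 1.22, which passed the test (limma adjusted p = 0.0334). The dimmest probe set averaged 128.5 ± 160.9 in urothelium and 49.9 ± 44.0 in mesenchyme (SD, n = 3 each), with overlapping groups.

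S100a16, an S100 protein found in many tissues, had signals of 35340, 33397 and 23228 on urothelium 5, 7 and 8, against 9538, 6907 and 7535 on mesenchyme 1, 2 and 4, with no overlap. The log2 difference was 1.92 ± 0.27 (limma adjusted p = 0.000557). This probe set is of the x_at kind as well. The other probe set of S100a16 is not, and it gave 9321, 9427 and 14902 on urothelium 5, 7 and 8, against 3556, 4571 and 4333 on mesenchyme 1, 2 and 4. It too showed no overlap, and with x_at probe sets left out the difference was 1.40 and passed the test (limma adjusted p = 0.00522). S100a16 did not pass a stricter test against a 2-fold difference (limma adjusted p = 0.0509).

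**Figure D2:**
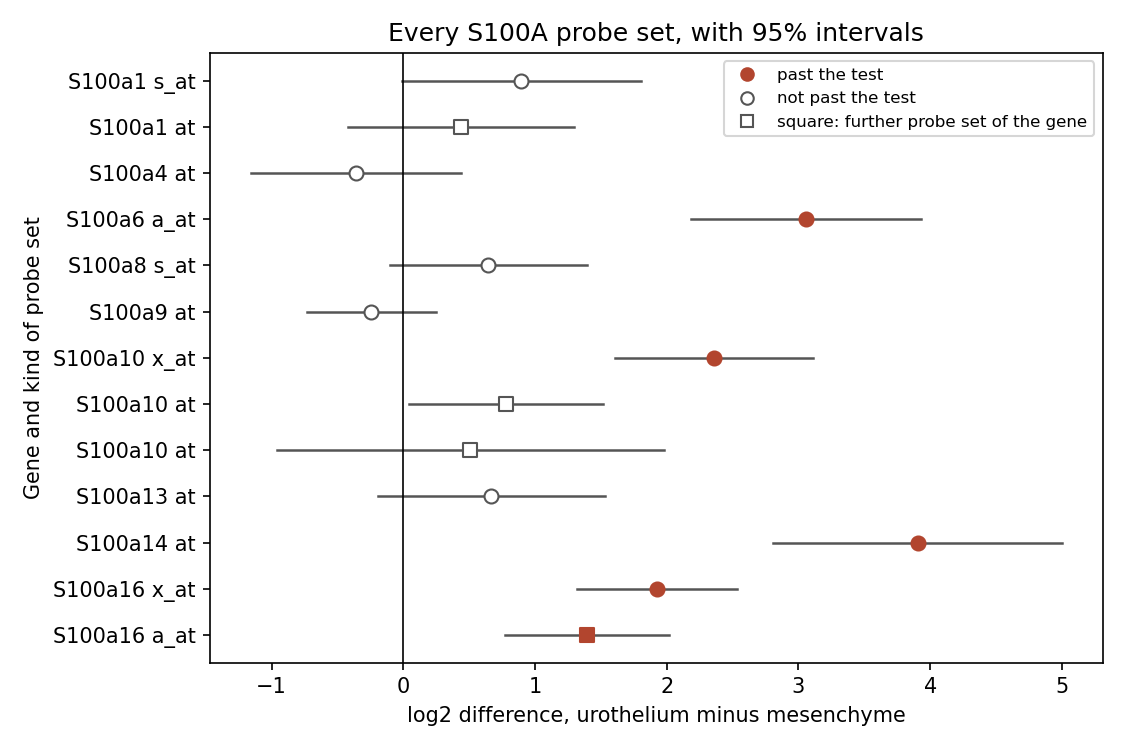
log2 difference, urothelium minus mesenchyme, of all 13 S100A probe sets with 95% intervals from the fit over 34945 probe sets; circles mark the brightest probe set of a gene, squares its other ones, and filled symbols passed the test. Both S100a16 probe sets passed, whereas for S100a10 1 of 3 did.

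Mean mesenchyme signal was 11.6% of mean urothelium signal for S100a6. For S100a10 it was 19.4% on the brightest probe set and 59.6% on the second, and for S100a16 it was 26.1% on the brighter probe set and 37.0% on the other. No share is given for S100a14, whose mesenchyme signals lie near or below the pseudocount. Whether these shares differ between genes was not tested. For the 14 epithelial markers, on their brightest probe sets, the share had a median of 2.27% and ran from 0.183% to 29.5%. The lowest was that of Trp63, whose mesenchyme signals of 73.4, 58.4 and 43.05 also lie near the pseudocount. The highest was that of Krt5, whose groups overlapped and which did not pass the test. How much of the mesenchyme signal comes from epithelial cells left in the mesenchyme preparation was not tested.

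S100a1, best known as a regulator of calcium handling in heart muscle, had signals of 479.7, 973.0 and 999.2 on urothelium 5, 7 and 8, against 423.7, 353.7 and 417.7 on mesenchyme 1, 2 and 4. Urothelium 5 lay just above the mesenchyme arrays and the other urothelium arrays well above them. The log2 difference of 0.90 ± 0.41 did not pass the test (limma adjusted p = 0.203), with a 95% interval of −0.01 to 1.80. It passed with array weights (1.13, limma adjusted p = 0.0155) and without both urothelium 5 and mesenchyme 1 (1.26, limma adjusted p = 0.0425). Its other probe set was dim, at 77.6 ± 25.4 in urothelium and 48.4 ± 33.9 in mesenchyme (SD, n = 3 each), and overlapped between compartments. Of 8 striated muscle markers, 0 were higher in urothelium, against 5.80% of all genes, and 3 in mesenchyme, against 8.91%. The summed signal of these markers was 684.7 to 1349 in urothelium and 4868 to 10585 in mesenchyme. In the settings where S100a1 passed, the striated muscle gene Myh3 was higher in urothelium too: its difference was 1.72 with array weights (limma adjusted p = 0.00839) and 2.24 without both urothelium 5 and mesenchyme 1 (limma adjusted p = 0.00554). In the same settings 3 of the striated muscle markers remained higher in mesenchyme. Myh3 had signals of 315.7, 4.68 and 11.2 on mesenchyme 1, 2 and 4. It also passed without mesenchyme 1 alone (limma adjusted p = 0.0228), where S100a1 did not (limma adjusted p = 0.204). The part of muscle cells in the S100a1 signal was not tested.

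S100a13, which takes part in the release of the growth factor Fgf1 from cells, had signals of 489.7, 679.0 and 499.3 on urothelium 5, 7 and 8, against 352.2, 276.0 and 365.7 on mesenchyme 1, 2 and 4. All urothelium arrays were above all mesenchyme arrays. The log2 difference of 0.67 ± 0.38 did not pass the test (limma adjusted p = 0.332), and its 95% interval ran from −0.18 to 1.52.

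S100a8 and S100a9 encode the subunits of calprotectin. S100a8 had signals of 82.6, 94.1 and 86.6 on urothelium 5, 7 and 8, against 19.8, 54.8 and 49.1 on mesenchyme 1, 2 and 4. The groups did not overlap, at signals below the median of every array (131.6 to 239.7), and the difference of 0.65 ± 0.33 did not pass the test (limma adjusted p = 0.259; 95% interval −0.08 to 1.37). S100a9 had signals of 7.71, 5.80 and 4.84 on urothelium 5, 7 and 8, against 30.7, 7.22 and 11.1 on mesenchyme 1, 2 and 4. All 6 values lay below the pseudocount and the groups overlapped. The difference was −0.24 ± 0.25 (limma adjusted p = 0.622), and 0.03 after the arrays were centred on their medians.

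The summed signal of 14 neutrophil and granulocyte markers was 881.3 to 1135 in urothelium and 2083 to 3041 in mesenchyme. Only 1 of the 14, the protease gene Mmp9, was higher in mesenchyme, and 13 did not pass the test. Mmp9 averaged 158.7 in urothelium and 1470 in mesenchyme, and most of the gap between the sums came from it. Over all genes 8.91% were higher in mesenchyme. Of 14 macrophage markers 7 were higher in mesenchyme and 0 in urothelium, with sums of 2093 to 2604 in urothelium and 11677 to 17479 in mesenchyme. The count of 7 was 3 with the 2-fold threshold, 2 among genes above the median signal and 5 to 8 when single arrays were left out. With array weights it was 12, where 2996 of all genes were higher in mesenchyme, against 1621 as reported. The part of neutrophils, granulocytes and macrophages in the S100a8 and S100a9 signals was not tested.

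S100a4, the fibroblast marker also named Fsp1, had signals of 5.83, 14.3 and 26.8 on urothelium 5, 7 and 8, against 8.13, 18.7 and 90.4 on mesenchyme 1, 2 and 4. On 5 of the 6 arrays the signal was below the pseudocount, and mesenchyme 4 was the exception. The log2 difference of −0.36 ± 0.37 did not pass the test (limma adjusted p = 0.624), with a 95% interval of −1.17 to 0.45, and it was 0.05 without mesenchyme 4. On the same arrays the summed fibroblast marker signal was 10734 to 14594 in urothelium and 296014 to 328797 in mesenchyme. A low signal here is not said to be absent, since no detection calls were used.

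**Figure D3:**
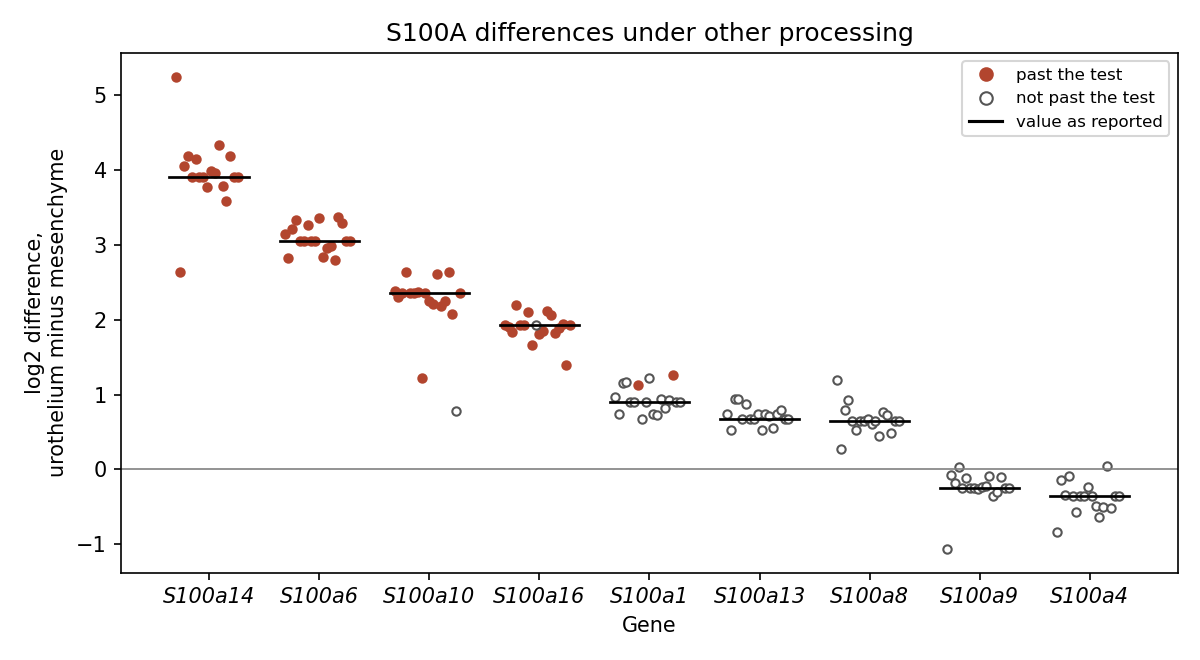
log2 difference, urothelium minus mesenchyme, of each S100A gene under every alternative processing; points are alternatives, filled where the gene passed the test, and black bars are the values as reported. S100a14 and S100a6 passed under every alternative in which they were tested, S100a10 missed the test with x_at probe sets left out and S100a16 missed it with the 2-fold threshold.

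The S100A genes lie together on mouse chromosome 3. In the RefSeq gene order of GRCm38.p6, 12 protein-coding genes follow each other from S100a1 to S100a9, all of them S100 genes, and 10 of these were measured. S100a11 and S100a10 form a neighbouring pair beyond 56 further protein-coding genes. S100a14 and S100a16, both higher in urothelium, are adjacent, with S100a13 on one side (0.67, not past the test) and S100a3 on the other (−0.33, limma adjusted p = 0.805). S100a6 is separated from them by S100a3, S100a2, S100a4 and S100a5, of which S100a2 was not analysed here and the others did not pass. S100a5, the direct neighbour of S100a6, had a difference of −1.32 ± 0.66 (limma adjusted p = 0.256).

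**Figure D4:**
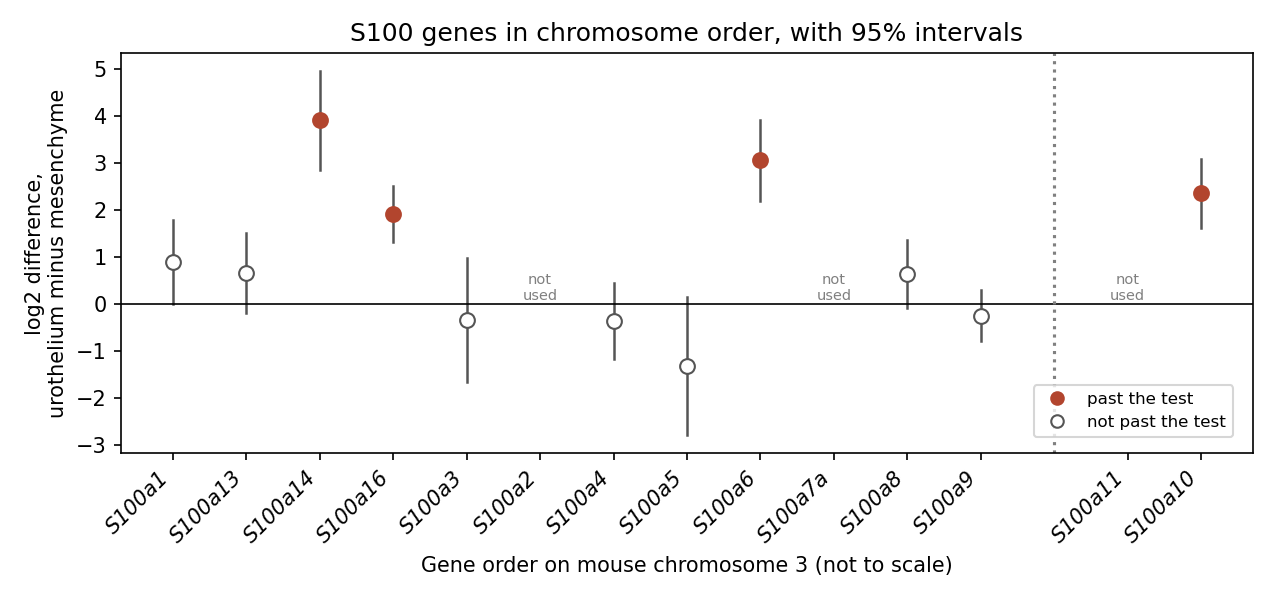
log2 difference, urothelium minus mesenchyme, of S100 genes in their order on chromosome 3 (horizontal axis not to scale), with 95% intervals; filled symbols passed the test, and the dotted line marks the gap of 56 genes. The intervals of S100a14, S100a16, S100a6 and S100a10 lie above 0, and those of the other measured genes include 0.

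Upstream sequences from RefSeq (GRCm38.p6) were found for 7 of the 9 measured genes, in 8 windows of the 250 bases before each annotated start. None was found for S100a14 and S100a10, which were higher in urothelium. The sequences are shown for 2 genes higher in urothelium, S100a6 and S100a16, and for S100a4 and S100a13, neighbours in the cluster that did not pass. Capitals mark matches, on either strand, to an AP-1 motif (TGANTCA), a grainyhead motif (AACNGGTT), a C/EBP motif (TTGCNNAA), a TATA box (TATAAA) or a CCAAT box (CCAAT). The S100a6 window is chr3:90612644-90612893, the S100a16 windows are chr3:90537004-90537253 and chr3:90540896-90541145, the S100a4 window is chr3:90603520-90603769 and the S100a13 window is chr3:90514185-90514434, all on the plus strand.
S100a6: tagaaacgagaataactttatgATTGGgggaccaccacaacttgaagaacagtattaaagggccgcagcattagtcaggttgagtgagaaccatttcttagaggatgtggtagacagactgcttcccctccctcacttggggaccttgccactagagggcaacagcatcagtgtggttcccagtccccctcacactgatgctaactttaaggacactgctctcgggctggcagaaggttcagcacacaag
S100a16 first start: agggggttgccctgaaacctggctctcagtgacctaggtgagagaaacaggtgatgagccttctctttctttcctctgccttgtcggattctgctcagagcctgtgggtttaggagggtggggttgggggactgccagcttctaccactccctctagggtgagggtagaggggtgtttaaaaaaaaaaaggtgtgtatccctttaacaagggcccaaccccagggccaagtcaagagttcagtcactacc
S100a16 second start: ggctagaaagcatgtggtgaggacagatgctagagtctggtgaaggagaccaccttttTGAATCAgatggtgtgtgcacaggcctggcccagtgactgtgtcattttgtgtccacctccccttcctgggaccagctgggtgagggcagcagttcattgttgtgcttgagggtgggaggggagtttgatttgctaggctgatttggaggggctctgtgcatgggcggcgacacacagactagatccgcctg
S100a4: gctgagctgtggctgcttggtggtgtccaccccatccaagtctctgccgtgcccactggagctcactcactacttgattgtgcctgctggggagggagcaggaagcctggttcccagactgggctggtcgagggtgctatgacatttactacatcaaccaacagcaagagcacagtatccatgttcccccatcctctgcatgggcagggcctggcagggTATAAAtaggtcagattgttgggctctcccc
S100a13: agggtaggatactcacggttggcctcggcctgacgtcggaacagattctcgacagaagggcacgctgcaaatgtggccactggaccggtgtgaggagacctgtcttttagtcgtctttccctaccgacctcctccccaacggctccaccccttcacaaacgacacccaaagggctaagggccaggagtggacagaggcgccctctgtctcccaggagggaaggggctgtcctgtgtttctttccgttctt

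No motif of the 5 was shared by S100a6 and S100a16, and S100a14 and S100a10 had no window to compare. S100a16 had 1 AP-1 match, beginning 192 bases before its second start, and AP-1 matches occurred in 6.75% of 32851 such windows of all genes. S100a6 had 1 CCAAT match on the opposite strand, a motif found in 33.8% of all windows. The S100a4 window had a TATA box beginning 31 bases before the start, and S100a8 had one 30 bases before its start, against 12.4% of all windows. S100a9 had the only grainyhead and C/EBP matches among the 8 windows, motifs found in 1.79% and 9.56% of all windows. The windows of S100a1 and S100a13, which are read from opposite strands, shared 104 bases and held none of the motifs. A match is a description of the letters and not of binding.

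Among genes above the median signal, those most like S100a14 across the 6 arrays were Ccdc68, the chloride channel family gene Clic6 and the serine protease gene Prss22. Likeness was the root mean square distance of log2 values centred on each gene's mean, and was 0.31 for Ccdc68, 0.35 for Clic6 and 0.35 for Prss22 over 9096 genes compared. Mean signals were 3161 in urothelium and 229.5 in mesenchyme for Ccdc68, 3795 and 346.3 for Clic6, and 5195 and 229.4 for Prss22.

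The list of other S100 genes also held S100pbp, whose product binds S100P in humans and is not itself an S100 protein. Of the 6 measured genes (S100a3, S100a5, S100a7l2, S100b, S100g and S100pbp), 0 passed limma's test in either direction and 0 had an unadjusted p under 0.05. With so few genes, a count of 0 lies near the shares over all genes, 5.80% higher in urothelium and 8.91% in mesenchyme. Their median difference, S100pbp included, was −0.19. S100pbp was bright, at means of 3410 in urothelium and 2874 in mesenchyme. S100a7l2 stayed below the pseudocount on all 6 arrays, and S100g rose above it only on urothelium 7 (52.8), which limits these comparisons. S100b, a marker of glial cells, had signals of 95.3, 55.5 and 52.0 on urothelium 5, 7 and 8, against 187.8, 51.8 and 90.7 on mesenchyme 1, 2 and 4, and the groups overlapped. Of 5 measured markers of neural crest and glia, 2 were higher in urothelium, against 5.80% of all genes, and 1 in mesenchyme, against 8.91%. Those higher in urothelium were Erbb3 (5.10 ± 0.28) and Ret (3.50 ± 0.46), which kept their calls under every alternative. Sox10 and Foxd3 did not pass. The gene higher in mesenchyme, Fabp7, differed by −1.76 (limma adjusted p = 0.0216). Its call was lost with the 2-fold threshold, without both urothelium 5 and mesenchyme 1, and without urothelium 5, urothelium 7, urothelium 8 or mesenchyme 4 alone. The part of glial cells in the S100b signal and in the signals of these markers was not tested.

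Annexins are calcium-dependent membrane-binding proteins, and several are held by S100 partners. Of 11 measured, 4 were higher in urothelium, against 5.80% of all genes, and 2 in mesenchyme, against 8.91%. Their median difference was 0.59. Anxa2, the partner of S100a10, averaged 34087 ± 4816 in urothelium and 22686 ± 3107 in mesenchyme (SD, n = 3 each). All urothelium arrays were above all mesenchyme arrays, but the difference of 0.59 ± 0.25 did not pass the test (limma adjusted p = 0.171), except with array weights (0.69) and without both urothelium 5 and mesenchyme 1 (0.80). Anxa1, the partner of S100a11, averaged 38805 ± 8013 in urothelium and 6698 ± 1286 in mesenchyme (SD, n = 3 each), with a difference of 2.53 ± 0.27 (limma adjusted p = 8.21e-05). Anxa8 differed by 6.11 ± 0.51 and Anxa9 by 3.26 ± 0.49, both higher in urothelium. Anxa6 was higher in mesenchyme, with a difference of −2.68 ± 0.46, and missed the test in the mean of its probe sets (−1.21). The number of annexins higher in urothelium was 7 with array weights, 6 without both urothelium 5 and mesenchyme 1, and 5 with arrays centred on their medians. It was 3 with the 2-fold threshold, in the mean of probe sets, among genes above the median signal, and without urothelium 7 or mesenchyme 2. The number in mesenchyme was 1 with the 2-fold threshold and in the mean of probe sets. With array weights 2055 of all genes were higher in urothelium, against 1055 as reported. That all-gene number was 1225 without both urothelium 5 and mesenchyme 1, and 1358 with arrays centred on their medians.

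Among 23 measured receptors and binding partners of S100 proteins, 2 were higher in urothelium and 4 in mesenchyme, with a median difference of −0.33. Over all genes 5.80% were higher in urothelium and 8.91% in mesenchyme. Ahnak, a giant scaffold protein bound by the complex of S100a10 and annexin A2, averaged 18282 ± 1847 in urothelium and 6224 ± 1259 in mesenchyme (SD, n = 3 each). Its difference was 1.56 ± 0.26 (limma adjusted p = 0.00157). Averaged over the probe sets of Ahnak it was 0.79 and did not pass. Plat, the tissue plasminogen activator, differed by −4.01 ± 0.38. Cd36, a scavenger receptor that binds calprotectin, differed by −4.81 ± 0.50. Tlr4, a receptor for calprotectin, had signals of 4.90, 6.78 and 70.4 on urothelium 5, 7 and 8, against 196.9, 608.0 and 363.4 on mesenchyme 1, 2 and 4. Every mesenchyme array was above every urothelium array, and the difference was −2.59 ± 0.50 (limma adjusted p = 0.00441). Ryr2, a calcium release channel bound by S100a1, differed by −2.54 ± 0.46. Ager, the receptor RAGE, averaged 135.7 ± 126.2 in urothelium and 107.9 ± 64.1 in mesenchyme (SD, n = 3 each), with overlapping groups and a difference of 0.08 ± 0.59 (limma adjusted p = 0.958). Ahnak, Tlr4 and Ryr2 did not pass against the 2-fold threshold. The number higher in urothelium was 1 without urothelium 7, and 0 with the 2-fold threshold or with probe sets averaged. It was 3 with quantile normalization, with arrays centred on their medians, with array weights, without mesenchyme 1, and without both urothelium 5 and mesenchyme 1. The number higher in mesenchyme was 9 with array weights, 7 without both urothelium 5 and mesenchyme 1, 2 with the 2-fold threshold and 1 after dim genes were removed. Among all genes 1621 were higher in mesenchyme as reported and 2996 with array weights. This all-gene number was 1731 without both urothelium 5 and mesenchyme 1 and 998 after dim genes were removed.

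Fused-type S100 genes and cornified envelope genes, which serve the barrier of stratified epithelia, lie near the S100A genes on the same chromosome. Of 14 measured, 3 were higher in urothelium, against 5.80% of all genes, and 0 in mesenchyme, against 8.91%. The median was 0.27. Those higher in urothelium were cornified envelope genes. Sprr1a, a small proline-rich protein, averaged 9905 ± 1191 in urothelium and 183.6 ± 44.2 in mesenchyme (SD, n = 3 each). Its difference was 5.45 ± 0.31 (limma adjusted p = 2.16e-06). Ivl, encoding involucrin, differed by 3.65 ± 0.53 and Lor, encoding loricrin, by 2.87 ± 0.32. The fused-type genes Flg, Hrnr, Rptn, Tchh and Tchhl1 did not pass the test. Tchh, encoding trichohyalin, had signals of 497.4, 256.7 and 313.5 on urothelium 5, 7 and 8, against 93.0, 132.0 and 144.3 on mesenchyme 1, 2 and 4, and the groups did not overlap. Its difference of 1.22 missed the test (limma adjusted p = 0.0823), but it passed with arrays centred on their medians (limma adjusted p = 0.0383), with probe sets averaged (limma adjusted p = 0.0447) and with no intensity trend (limma adjusted p = 0.0361). Sprr2d went the other way, with every mesenchyme array above every urothelium array at means of 17.1 in urothelium and 77.4 in mesenchyme. Its difference of −0.99 missed the test (limma adjusted p = 0.0622) but passed with probe sets averaged (limma adjusted p = 0.0463). In that setting 4 genes were higher in urothelium and 1 in mesenchyme.

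Of 20 other measured EF-hand proteins, 2 were higher in urothelium, against 5.80% of all genes, and 3 in mesenchyme, against 8.91%. Their median was −0.39. The counts were 5 and 5 with array weights, and 0 and 1 with the 2-fold threshold or with probe sets averaged. For all genes they were 2055 and 2996 with array weights, against 1055 and 1621 as reported. Rcn3, a calcium-binding protein of the endoplasmic reticulum, differed by −4.13 ± 0.60, the neuronal calcium sensor gene Ncs1 by −2.04 ± 0.36 and Calu, encoding calumenin, by −0.98 ± 0.28. Capn1, a calpain protease subunit, differed by 1.65 ± 0.41. Ncs1, Calu and Capn1 missed the test with the 2-fold threshold and with probe sets averaged. The calls of Calu and Capn1 were lost when single arrays were left out: Calu without any 1 of the 6, and Capn1 without urothelium 7, urothelium 8, mesenchyme 2 or mesenchyme 4. The number higher in urothelium was 0 without urothelium 7, mesenchyme 2 or mesenchyme 4 and 1 without urothelium 5, urothelium 8 or mesenchyme 1, and that in mesenchyme was 2 without urothelium 5, 7 or 8 or mesenchyme 1 or 4.

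**Figure D5:**
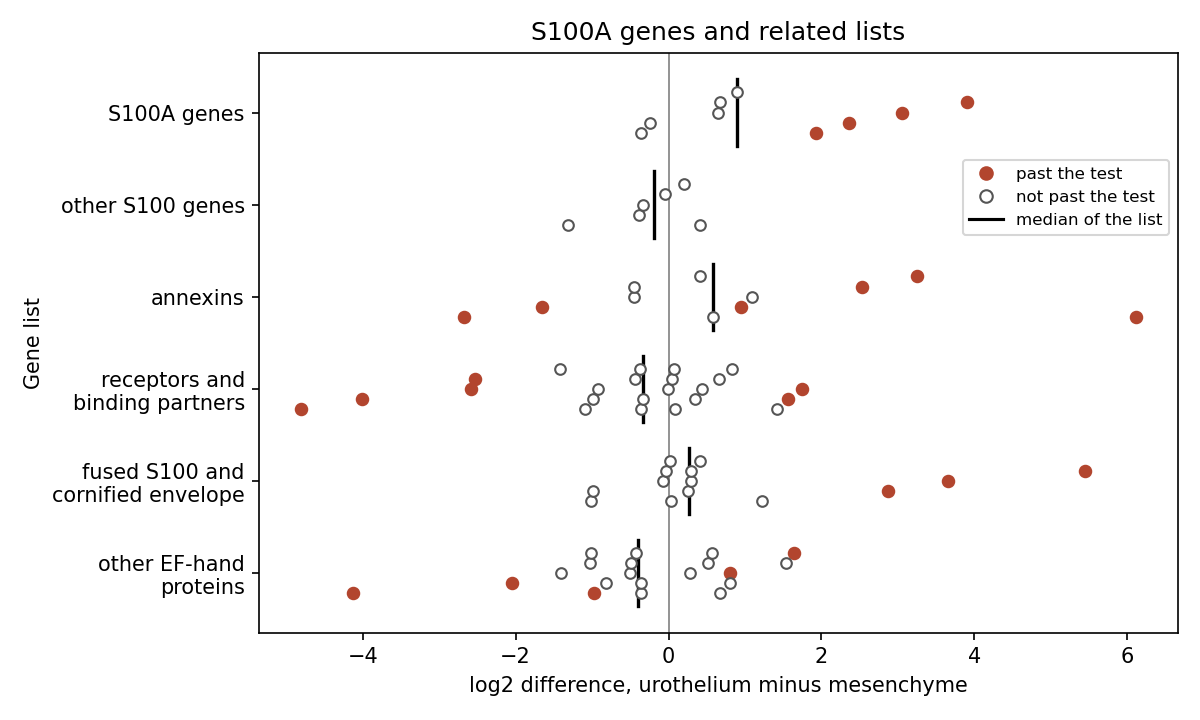
log2 difference, urothelium minus mesenchyme, of the measured genes of each list; points are genes, filled where they passed the test, spread vertically for legibility, and black bars are list medians. The S100A genes that passed lie on the urothelium side, as do those of the fused-type S100 and cornified envelope list. The annexins, the partners and the other EF-hand proteins have genes past the test on both sides.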

How the data were processed

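The authors deposited 1 array intensity per probe set on a linear scale. The submitters' processing notes name GCOS; which algorithm it ran is not given in the sources used here. Trimmed by 2% at each end, the mean was 1500 on every array, so no further scaling was applied. Of 45101 probe sets, 64 were controls and left out, 34945 had a single symbol in the platform's annotation, 932 had several and 9160 had none; only those with a single symbol were used. Through Entrez identifiers 34741 matched RefSeq and 0 symbols changed.

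Each gene was represented by its probe set with the highest mean log2 signal. Signals plus 45, the rounded 25th percentile over the whole table, were log2 transformed and fitted with limma 3.58.1 in R 4.3.3 (lmFit, eBayes with an intensity trend) on 6 arrays. P-values were adjusted by Benjamini-Hochberg over 18193 genes, and adjusted p under 0.05 passed. The fit was tested on simulated data. Intervals are 95% and unadjusted.

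The members and lists were chosen with earlier results of these data known. All members are named, with up to 4 genes per list by size of difference past the test, Anxa1, Anxa2, Ager, Tlr4, Ahnak and S100b whether or not they passed, and the 3 genes most like the S100A gene of largest difference at this pseudocount. Mmp9, Myh3, Fabp7, Erbb3, Ret, Sprr2d, Trp63, Krt5 and the genes listed by name where a list is counted were named after their values were seen. Marker lists for smooth muscle, endothelium, mesothelium and red cells had 0, 0, 4 and 0 genes higher in urothelium and 7, 8, 3 and 4 higher in mesenchyme, of 8, 8, 8 and 6 measured. The shares over all genes were 5.80% in urothelium and 8.91% in mesenchyme. Of the 4 mesothelial genes higher in urothelium, Krt8, Krt18 and Krt19 are also in the epithelial list. The red cell count of 4 was 0 without urothelium 7, 1 without mesenchyme 4 and 2 without urothelium 5, mesenchyme 1 or mesenchyme 2.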

Additional observations from a re-analysis of the deposited data

How the results depend on the processing

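No paired analysis was possible because the compartments share no replicate numbers. S100a14 and S100a6 kept their calls under each alternative in which they were tested, and S100a14 was not tested with only genes above the median signal kept. The number of S100A genes higher in urothelium was 4 without any single array, 3 to 5 over all 18 alternatives, and that in mesenchyme was 0 throughout. The call of S100a10 was lost with x_at probe sets left out (0.78), an alternative chosen after seeing the data, and that of S100a16 with the 2-fold threshold (1.92). S100a1 passed with array weights (1.13) and without both urothelium 5 and mesenchyme 1 (1.26). The sign of S100a4 turned without mesenchyme 4 (0.046, with −0.63 to 0.046 over the arrays left out one at a time), and that of S100a9 turned with arrays centred on their medians (0.033); neither gene passed under any alternative. Over all genes, the counts higher in urothelium and mesenchyme were 1055 and 1621 as reported, and 2055 and 2996 with array weights; 998 were higher in mesenchyme among genes above the median signal. Leaving out single arrays gave 660 (without urothelium 7) to 1059 in urothelium and 1138 to 1678 in mesenchyme. Centring on medians moved the median gene by 0.28 and quantile normalization by 0.11, upwards, and the S100A differences are to be read against that shift. The causes of these changes were not tested beyond fewer arrays or genes. Signal over background limits S100a4, S100a8 and S100a9, and the mesenchyme side of S100a14.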
